A study of Saccharomyces cerevisiae with 11 samples.

Results

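A pair of transcript leader sequencing (TL-seq) libraries of the budding yeast strain Sigma 1278b was compared, 1 made with and 1 without tobacco acid pyrophosphatase, to describe the 5′ ends that were called when no enzyme removed the cap. The members were all open reading frames (ORFs) with a leader length in the library without the enzyme: 204 of the 4551 ORFs called in any of the 11 libraries. Of these, 171 were also called in the Sigma library with the enzyme, which held 1883 ORFs, and 33 were not. Between them the Sigma libraries covered 1916 ORFs, and the 1712 called only with the enzyme serve as the comparison. The membership uses only which library a call came from.

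The Sigma cells were of mating type a and carried ura3, leu2, trp1 and his3 mutations. Mid-log cultures in rich glucose medium were used, and both groups share strain, medium and sequencer (Genome Analyzer II). The other libraries used here are 2 biological replicates of TL-seq from S288C, the reference strain, sequenced on a HiSeq instrument, and 7 TATL-seq libraries, 1 for each fraction of a polysome gradient of BY4742. This strain of the S288C background has mating type α and carries his3∆1, leu2∆0, lys2∆0 and ura3∆0. The S288C libraries were labelled as made with the enzyme, and the TATL-seq libraries followed a protocol that includes it. Their ends are called capped ends here. No S288C or TATL-seq library without the enzyme was available, so ends that were ligated without that step could not be told apart among them. The labels do not say whether the Sigma libraries came from the same RNA preparation, and each stands for 1 sample. No test between them was therefore possible, and all counts below describe these libraries.

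Eukaryotic mRNAs carry a 7-methylguanosine cap joined to the first nucleotide by a triphosphate bridge. In TL-seq a phosphatase first removes the 5′ phosphates of broken or decapped RNA, so that such ends cannot be ligated. The pyrophosphatase then opens the bridge and leaves a single phosphate at former caps, to which the adaptor can be joined. A call in the mock-treated library is thus a 5′ end that was ligated without that step. In yeast, capped ends are opened by the decapping enzyme Dcp2 and degraded from the 5′ side by the exonuclease Xrn1. The files give 1 leader length per gene, the distance in nucleotides (nt) from the called 5′ end to the start codon, with no reads behind it. A length that is smaller in the control means an end downstream, nearer the start codon, and a larger one an end upstream. Ends inside a coding sequence have no place on this scale, so the control describes leaders only. The depth of each library is unknown. The number of calls was lower in the library labelled as lacking the enzyme.

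The control calls lay on ORFs that were called widely elsewhere. Called without the enzyme were 4.48% of all 4551 ORFs and 9.08% of the 1883 called with it (171 ORFs, exact 95% interval 7.82 to 10.5, which covers counting error over ORFs only, as do all intervals below). Among ORFs called with the enzyme and in all 7 gradient fractions, 145 of 959 also had a control call (15.1%, exact interval 12.9 to 17.6). Among those called in 6 fractions the share was 14 of 308 (4.55%, interval 2.51 to 7.51). In ORFs called in 5, 4 or 3 fractions it was 3 of 137, 3 of 128 and 2 of 97. With 2, 1 and no fractions it was 0 of 76, 2 of 84 and 2 of 94, and the 0 allows a share of up to 4.74% at the upper end of its interval. The share therefore stood at 2.38% or below up to 5 fractions and was highest for ORFs called in every fraction. The S288C replicates gave the same order, with 154 of 1492 ORFs called in both replicates (10.3%, interval 8.82 to 12.0) and 17 of 391 of the rest (4.35%, interval 2.55 to 6.87). The files hold no read counts, so the part of mRNA abundance in these shares was not tested.

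**Figure D1:**
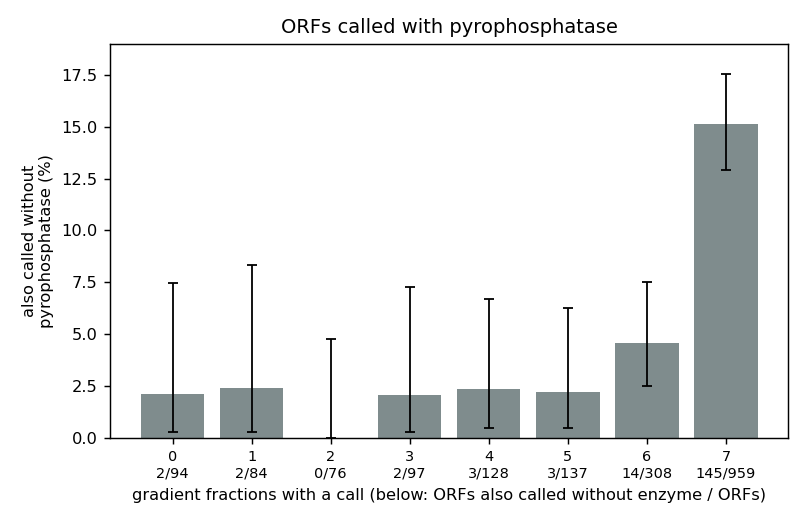
Share of the 1883 ORFs called with pyrophosphatase that were also called without it (%), by the number of TATL-seq fractions in which the ORF had a call. Whiskers are exact 95% intervals over ORFs, and the numbers under the axis are counts of ORFs; the share was 15.1% for ORFs called in all 7 fractions and 4.55% or below for the others.

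The ORFs called in both Sigma libraries were shorter genes. Their genomic span had a median of 771 nt (quartiles 518.5 and 1038) against 1017 nt (quartiles 660 and 1509) for those called only with the enzyme, and 837 nt for the 33 called only in the control. By the leader with the enzyme, the share with a control call ran from 12 of 103 (11.7%) for leaders of up to 5 nt and 20 of 158 (12.7%) for 6 to 11 nt to 13 of 241 (5.39%) for 100 nt or more, with overlapping intervals between the ends of this range (6.17 to 19.5 and 2.90 to 9.05). Between these, the bins from 12 to 99 nt lay at 8.14% to 10.2%. None of the 204 control ends fell inside another gene of the RefSeq table, which allows up to 2.13% of the 171 and 10.6% of the 33. With the enzyme, 9 of the 1712 ends of the other ORFs did.

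Against the Sigma library with the enzyme, the control end lay downstream for 88 of the 171 shared ORFs (51.5%), at the same nucleotide for 40 (23.4%) and upstream for 43 (25.1%). It lay at least 10 nt downstream for 51 (29.8%) and at least 10 nt upstream for 13 (7.6%). The median difference, control minus enzyme, was −1 nt (quartiles −11.5 and 0.5, order-statistic interval of the median −3 to 0; the median was 0 nt without ribosomal protein genes), and the range was −616 to 616 nt. Downstream ends were displaced by a median of 11 nt and upstream ends by 5 nt. For the 51 ORFs displaced downstream by 10 nt or more, the median leader was 43 nt with and 17 nt without the enzyme. At the 10 nt boundary itself, 3 ORFs lay at −10 nt, namely AHP1, SUP35 and TWF1, and 2 at −9 nt, CDC37 and RPL21B. On the upstream side ZIM17 lay at 10 nt, and MHF1 and RPL1B at 9 nt.

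**Figure D2:**
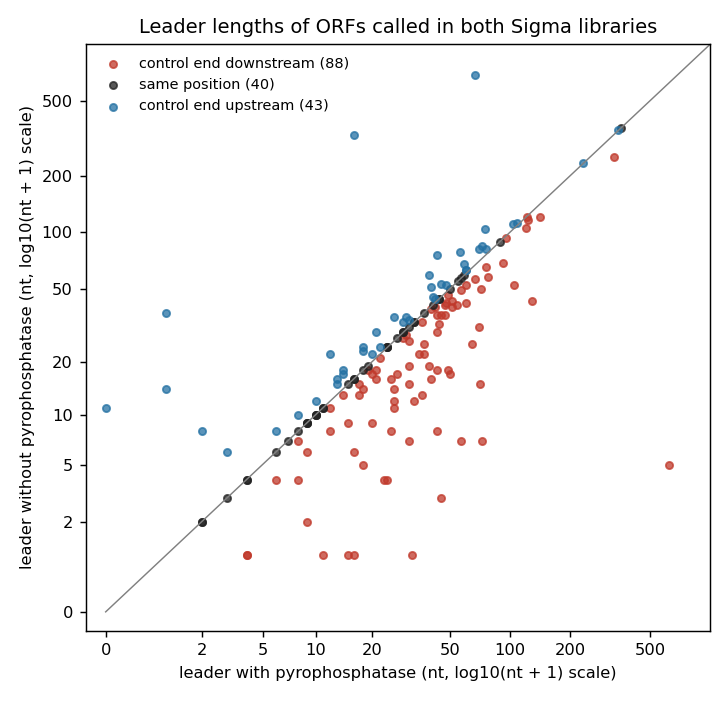
Leader length without (vertical) against with (horizontal) pyrophosphatase for the 171 ORFs called in both Sigma libraries, in nt on a log10(nt + 1) scale. Points below the diagonal are control ends nearer the start codon (88), points on it have the same end (40) and points above it have control ends farther away (43).

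Capped libraries also differ from each other, so the same counts were made over the same ORFs for the 7 gradient fractions against Sigma with the enzyme. These comparisons share the Sigma library with the one above, and the fractions come from another strain and method. Of the 155 to 165 ORFs compared per fraction, 28.1% to 40.6% lay downstream of the Sigma end, 32.3% to 50.9% at the same nucleotide and 20.2% to 27.3% upstream. Downstream by at least 10 nt were 7.98% (fraction 6) to 17.6% (fraction 3), and upstream by as much 4.32% to 7.27%. The control thus had a larger downstream share (51.5%, and 29.8% at 10 nt) and a smaller same share (23.4%) than each of the 7 fractions. Its upstream share of 7.6% at 10 nt was also above all 7, though close to the highest, at 7.27%. A single control library gives no spread to set against the 7. These contrasts also depend on the Sigma library with the enzyme as the reference. Measured against each fraction instead, 17.4% (fraction 1) to 24.5% (fraction 6) of control ends lay at least 10 nt downstream. For fraction 1 this was 27 of 155, the same count as for fraction 1 against Sigma with the enzyme. The S288C replicates, which share strain and sequencer, gave the same length for 136 of 154 of these ORFs, with 4 at least 10 nt downstream and 4 upstream.

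Set against the TATL-seq medians instead, 31 of 169 control ends lay at least 10 nt downstream (18.3%) and 9 upstream, with 51 equal. For the Sigma library with the enzyme, the same reference gave 10 downstream (5.92%), 20 upstream (11.8%) and 75 equal. The 29.8% measured within Sigma therefore holds ORFs in which the Sigma end with the enzyme, not the control end, lay apart from the fractions. The S288C leaders gave another picture: with their mean as the capped end, 150 of 174 control ends lay downstream, 1 at the same place and 23 upstream. Sigma leaders with the enzyme were themselves shorter than S288C leaders by a median of 5 nt over 1492 ORFs. Over the 154 shared ORFs called in both S288C replicates, 109 Sigma ends with the enzyme lay downstream of the S288C mean. A further 2 lay at the same place and 43 upstream, against 133, 1 and 20 for the control ends. Against the TATL-seq medians of BY4742, which has the S288C background, the Sigma leaders differed by a median of 0 nt over 1789 ORFs, with 786 equal. The S288C TL-seq leaders were longer than those TATL-seq medians by a median of 5 nt over 2553 ORFs. Strain, library method, instrument and alignment are not separated in these comparisons, and the cause of the 5 nt difference was not tested.

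**Figure D3:**
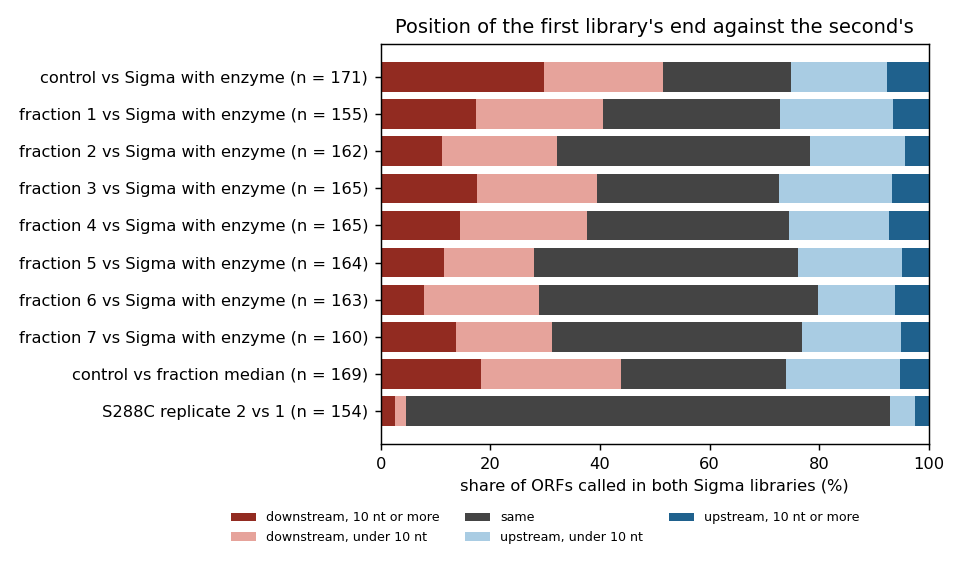
Position of the end in the first library named against the end in the second, as a share of the ORFs called in both Sigma libraries (%). Downstream means nearer the start codon; 29.8% of control ends lay 10 nt or more downstream of the Sigma end with the enzyme, against 7.98% to 17.6% in the 7 fractions and 2.60% between S288C replicates.

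The room left in a leader bounds how far downstream an end can lie. For the 57 ORFs with a leader of up to 19 nt with the enzyme, 5 control ends lay at least 10 nt downstream and 5 upstream, and 21 were the same. For the 69 with 20 to 49 nt the counts were 26, 3 and 13. For the 45 with 50 nt or more they were 20, 5 and 6. Downstream ends at 10 nt thus outnumbered upstream ends in both classes of leaders of 20 nt or more, and not in the shortest. The leader with the enzyme sets these classes and also enters the difference. A long leader with the enzyme therefore favours a downstream control end by construction, and these counts cannot separate that part. Many control ends lay close to the start codon: 48 of the 171 were under 12 nt (28.1%, interval 21.5 to 35.4), where 32 leaders with the enzyme (18.7%, interval 13.2 to 25.4) and 34 of 169 TATL-seq medians (20.1%) were so short. The shortest control length was 1 nt, in 6 ORFs: CDC28 (32 nt with the enzyme), RPL3 (16 nt), SSA2 (15 nt), TWF1 (11 nt), BTT1 (4 nt) and CIN2 (4 nt).

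ORFs whose leader varied between fractions were also those whose control end was more often displaced from the Sigma end with the enzyme. Of 52 shared ORFs with 1 length in all 7 fractions, 19 had the same end in both Sigma libraries (36.5%) and 8 a control end at least 10 nt downstream (15.4%). Of 93 with more than 1 length among the fractions, 14 had the same end (15.1%) and 32 a control end at least 10 nt downstream (34.4%). Upstream by at least 10 nt lay 1 of the 52 and 8 of the 93. The Sigma end with the enzyme enters each difference and may itself vary in such ORFs, and these counts cannot separate that part. Leader length was not compared between these classes.

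The control ends were next compared with the set of lengths seen among the gradient fractions, which played no part in choosing the members. Of the 169 shared ORFs with a fraction call, 82 control ends equalled the length in at least 1 fraction (48.5%, interval 40.8 to 56.3), and 109 ends with the enzyme did (64.5%, interval 56.8 to 71.7). Within 10 nt of a fraction lay 149 control ends (88.2%) and 157 ends with the enzyme (92.9%). Nearer the start codon than every fraction lay 47 control ends (27.8%) and 18 with the enzyme (10.7%), and by at least 10 nt 20 control ends and 3 with the enzyme. Farther out than every fraction by at least 10 nt lay 5 control ends and 11 with the enzyme.

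Over the 129 ORFs with different ends in the Sigma libraries and a fraction call, the fractions held both lengths for 18, only the control length for 28, only the length with the enzyme for 55, and neither for 28. A control end that differed from the Sigma end with the enzyme therefore equalled a TATL-seq length in 46 of 129 ORFs (35.7%, interval 27.4 to 44.6). Of the 62 displaced by at least 10 nt, the TATL-seq median was nearer to the control end in 27, nearer to the end with the enzyme in 33, and equally far in 2.

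The 20 ORFs with control ends at least 10 nt nearer the start codon than all fractions included several in which the capped libraries were close to each other. PTI1, for a subunit of the mRNA cleavage and polyadenylation factor, had 130 nt in Sigma with the enzyme and in all 7 fractions and 135 nt in both S288C replicates, but 43 nt in the control. Its control end would lie at nucleotide 800503 of chromosome VII (plus strand, sacCer3, ORF at 800546 to 801823), 87 nt inside the capped leader. HTA1, for histone H2A, had 73 nt with the enzyme, 73 and 76 nt in S288C and 70 to 73 nt in the fractions (median 71), but 7 nt in the control (nucleotide 915523 of chromosome IV, ORF at 915530 to 915928). For both genes every capped library agreed to within 6 nt, and the control end lay apart.

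RTC6, for a mitochondrial ribosomal protein, had 71 nt with the enzyme, 77 and 107 nt in S288C and 71 to 80 nt in 6 fractions, against 15 nt in the control. CDC28, for the cell cycle kinase, had 32 nt with the enzyme, 79 nt in both S288C replicates and 14 to 33 nt in the fractions, against 1 nt. RPL35A, for a large-subunit ribosomal protein, had 45 nt with the enzyme, 18 nt in both S288C replicates and 20 to 36 nt in the fractions, against 3 nt. SNC2, for a secretory vesicle SNARE, had 65 nt with the enzyme, 84 nt in both S288C replicates and 38 to 89 nt in the fractions, against 25 nt. In each of these 4 genes the control end was the shortest length of all libraries. The capped lengths of CDC28 (14 to 79 nt) and SNC2 (38 to 89 nt) were themselves widely spread.

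POP4, for a subunit of RNase P and RNase MRP, had 49 nt with the enzyme, 32 nt in both S288C replicates and 28 to 49 nt in the fractions, against 18 nt in the control. The mitochondrial phosphate carrier gene MIR1 had 43 nt with the enzyme, 27 nt in S288C and 31 to 43 nt in the fractions, against 18 nt. PKR1, for an assembly factor of the vacuolar proton pump, had the largest distance, 616 nt, but here the library with the enzyme was the one apart. Its leader was 621 nt there, 29 nt in both S288C replicates, 16 nt in 3 fractions and 5 nt in the control. The others of the 20 were AHP1, CBR1, CUR1, GAL83, LEU5, PMT2, PSG1, RPL3, SCS2, SSA2 and TWF1, with control lengths from 1 nt (RPL3, SSA2, TWF1) to 121 nt (LEU5, 142 nt with the enzyme). The 20 were set against the fractions only. The control length of CUR1, 40 nt, equalled that of S288C replicate 1 (63 nt in replicate 2). GAL83 had 69 nt in the control and 73 nt in both S288C replicates.

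**Figure D4:**
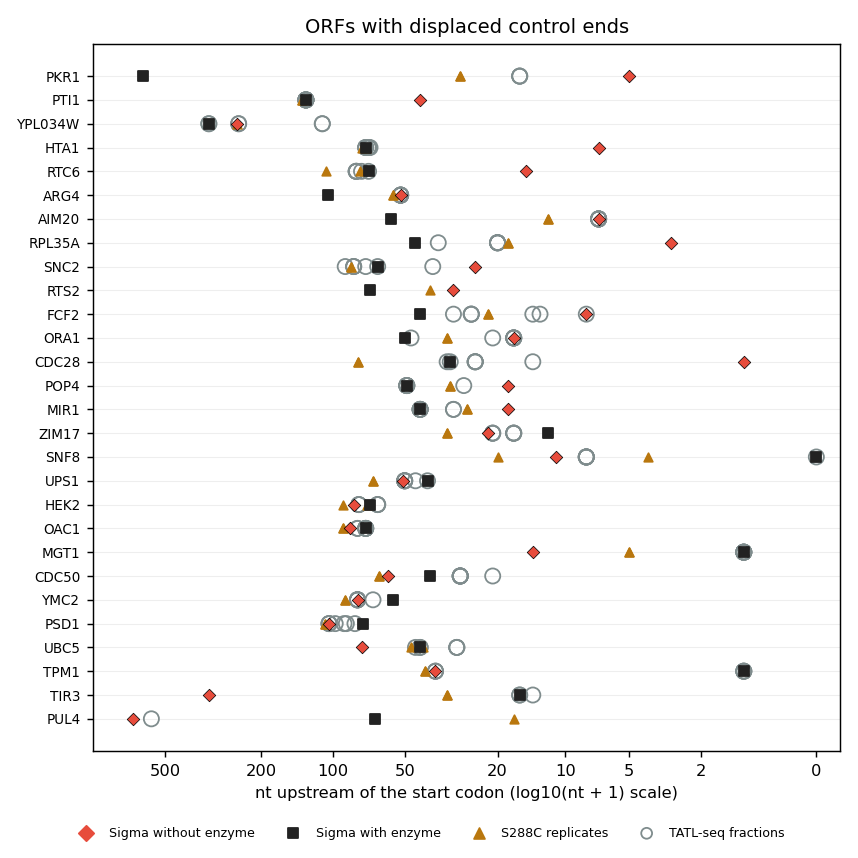
Distance of each called end from the start codon (nt, log10(nt + 1) scale, start codon to the right) for the 15 ORFs with the largest downstream displacement of the control end, from PKR1 to MIR1, and the 13 with control ends at least 10 nt upstream, from ZIM17 to PUL4. A diamond inside a ring, as for ARG4, AIM20 and YMC2, is a control end that equals a TATL-seq length; PTI1 and HTA1 have control ends apart from all capped libraries.

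In some other genes the downstream control end was also called in gradient fractions. ARG4, for argininosuccinate lyase, had 105 nt in Sigma with the enzyme, but 52 nt in the control and in all 6 fractions with a call and 56 nt in both S288C replicates. AIM20 had 57 nt with the enzyme, 7 nt in the control and all 7 fractions, and 12 nt in both S288C replicates. ORA1, for an oxidoreductase, had 50 nt with the enzyme, 17 nt in the control and in 5 of the fractions, whose highest length was 47 nt, and 33 nt in both S288C replicates. FCF2, a gene of ribosomal RNA processing, had 43 nt with the enzyme, 8 nt in the control, 8 to 31 nt in the fractions and 22 nt in S288C. In these 4 genes the Sigma end with the enzyme lay upstream of all other capped calls, and the control end equalled at least 1 fraction. YPL034W, an uncharacterised ORF, had 330 nt with the enzyme, 251 nt in the control, 111 to 330 nt in 6 fractions and 253 nt in the S288C replicate with a call. RTS2 had 70 nt with and 31 nt without the enzyme, 39 nt in 1 S288C replicate and no fraction call.

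Control ends far upstream were few. PUL4 had 683 nt in the control and 67 nt with the enzyme, 572 nt in its only fraction and 17 nt in 1 S288C replicate. TIR3, for a cell wall mannoprotein, had 329 nt in the control, 16 nt with the enzyme, 14 to 16 nt in 3 fractions and 33 nt in both S288C replicates. TPM1, for tropomyosin, had 37 nt in the control and in 3 fractions, and 1 nt with the enzyme and in the other 4; S288C had 41 nt in both replicates. The control end of TPM1 thus matched a TATL-seq length that the Sigma library with the enzyme did not call.

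UBC5, for a ubiquitin-conjugating enzyme, had 76 nt in the control, 43 nt with the enzyme, 30 to 45 nt in 6 fractions and 42 and 47 nt in S288C. PSD1, for phosphatidylserine decarboxylase, had 104 nt in the control and 75 nt with the enzyme, between 81 and 104 nt in the fractions and 108 nt in both S288C replicates. YMC2, for a mitochondrial carrier, had 79 nt in the control and in 6 of 7 fractions, 56 nt with the enzyme and 89 nt in S288C. CDC50, for a flippase subunit, had 59 nt in the control, 39 nt with the enzyme, 21 to 29 nt in the fractions and 64 nt in S288C. PSD1 and YMC2 lay among the capped lengths, and UBC5, CDC50, TIR3, PUL4 and MGT1 (14 nt in the control, 1 nt with the enzyme and in all fractions) lay at least 10 nt above every fraction. Over all capped libraries CDC50 also lay among the lengths, between 39 nt with the enzyme and 64 nt in S288C. The remaining displaced ORFs, ZIM17, SNF8, UPS1, HEK2 and OAC1, differed by 10 to 12 nt, and MHF1 and RPL1B, next in order, by 9 nt.

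The 40 ORFs with the same end in both libraries had leaders from 2 to 361 nt (median 18.5 nt), 16 of them under 12 nt. Of the 40, 36 ends equalled the length of at least 1 fraction, and for 19 ORFs both Sigma libraries and all 7 fractions gave the same nucleotide. Those 19 include RPL32, for a large-subunit ribosomal protein, at 361 nt (nucleotide 45617 of chromosome II in sacCer3), the oligosaccharyltransferase gene OST3 at 59 nt, the prohibitin gene PHB2 at 50 nt, the cyclin-dependent kinase gene PHO85 at 33 nt and the tRNA splicing gene SEN15 at 37 nt. The 12 longest further held TIF6 (89 nt), YOR283W (57 nt), ORT1 (55 nt), ADD37 and GLC8 (44 nt), YKL068W-A (41 nt) and ELP6 (33 nt). In the 35 of the 40 called in both S288C replicates, the S288C mean was longer in 32, by a median of 5 nt, the same size as over all ORFs. The labels do not say whether an intron within a leader counts towards its length, so the position of the RPL32 end is given for an unspliced leader.

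By gene group, cytosolic ribosomal protein genes were called most often in the control among lists with 10 or more members called with the enzyme. They made up 23 of the 94 called with the enzyme (24.5%, where 9.08% of all ORFs had a control call), 17 of 56 large-subunit genes, 6 of 35 small-subunit genes and none of 3 stalk genes. They were also widely called elsewhere. Among ORFs called in all 7 fractions the shares were 22 of 78 (28.2%) for ribosomal protein genes and 123 of 881 for other ORFs, where 148 of 1789 of the other ORFs had a control call without this limit. Of their 23 shared ends, 15 lay downstream, 4 the same and 4 upstream, with a median difference of −2 nt, and 4 lay at least 10 nt away (RPL35A, RPL3, RPL35B and RPL43A), against 51 and 13 of 171 for all ORFs. Their leaders with the enzyme were shorter, with a median of 19 nt against 31 nt for all shared ORFs, which leaves less room for displacement. Among all 57 shared ORFs with leaders of up to 19 nt, 5 lay at least 10 nt downstream and 5 upstream. A trait of the group beyond leader length was not tested. RPL3 had 16 nt with the enzyme and in the fractions and 1 nt in the control. RPL35B had 26 and 11 nt, and its fractions 14 to 17 nt. RPL43A had 20 nt with the enzyme and 9 nt in the control and all fractions, and RPL21B 25 nt against 16 nt in the same way. Near-identical paralogs such as RPL35A and RPL35B may share reads, so that their separate lengths are uncertain.

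Among translation factors 4 of 21 had a control call, with 1 end downstream, 1 the same and 2 upstream. SUP35, the termination factor eRF3, had 27 nt with and 17 nt without the enzyme, and SUI1, for the start codon selection factor eIF1, 2 and 8 nt. TIF2, for the helicase eIF4A, had 48 and 52 nt, and TIF6 89 nt in both. Of the chaperone genes 1 of 7 was shared, the Hsp70 gene SSA2 (15 and 1 nt), and of the redox genes 1 of 9, the peroxiredoxin gene AHP1 (16 and 6 nt). Of amino acid synthesis genes, which hold every symbol with the matching stem, 3 of 33 were shared: ARG4, the mitochondrial carrier gene LEU5, and ARG3, for ornithine carbamoyltransferase, at 20 and 22 nt.

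Respiratory chain and ATP synthase genes gave 3 of 21, QCR10 (35 and 22 nt), ATP18 (47 and 36 nt) and ATP14 (42 and 44 nt). Mitochondrial ribosomal protein genes gave 2 of 32, MRPL37 (26 and 14 nt) and MRPL33 (3 nt in both), and proton ATPase genes 2 of 10, VMA3 (31 and 7 nt) and VMA8 (45 and 53 nt). Histones gave 1 of 6 (HTA1), proteasome genes 1 of 16 (PRE1, 76 and 82 nt), cell wall genes 1 of 7 (TIR3), and host genes of intronic snoRNAs 1 of 3 (RPL7B, 8 and 4 nt). These lists are too small to set their shares against the 9.08% of all ORFs. No shared call was found for the 8 decay enzyme genes, the 2 glycolysis genes, the 12 ergosterol genes, the 3 genes with characterised upstream ORFs and the 2 mRNAs described as cleaved by the RNase III enzyme Rnt1 that were called with the enzyme.

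The 33 ORFs called only in the control were mostly genes that other libraries did call. The exception was KGD4, for a subunit of α-ketoglutarate dehydrogenase, with 99 nt in the control and no call in any of the other 10 libraries. Of the other 32, 20 were called in both S288C replicates and 29 in a fraction, 14 of these in all 7. As shares of the 33 these were 60.6% (interval 42.1 to 77.1), 87.9% (71.8 to 96.6) and 42.4% (25.5 to 60.8). Of the 1883 ORFs called with the enzyme, 1492 were called in both S288C replicates, 1789 in a fraction and 959 in all 7. Each share was thus lower among the 33 than among ORFs called with the enzyme. For a fraction and for all 7 fractions, the interval of the 33 includes the share among ORFs called with the enzyme. In the 32, the control length equalled a capped length elsewhere in 10 and lay within 10 nt of one in 20. It lay nearer the start codon than every capped length in 14 and beyond every one in 3. In the other 15, which include the 10 exact matches, it lay within the range of the capped lengths or at its edge. Of the 29 with a fraction call, 19 lay within 10 nt of a fraction (65.5%), where 88.6% of the 1620 ORFs called only with the enzyme and in a fraction did so with their Sigma end.

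**Figure D5:**
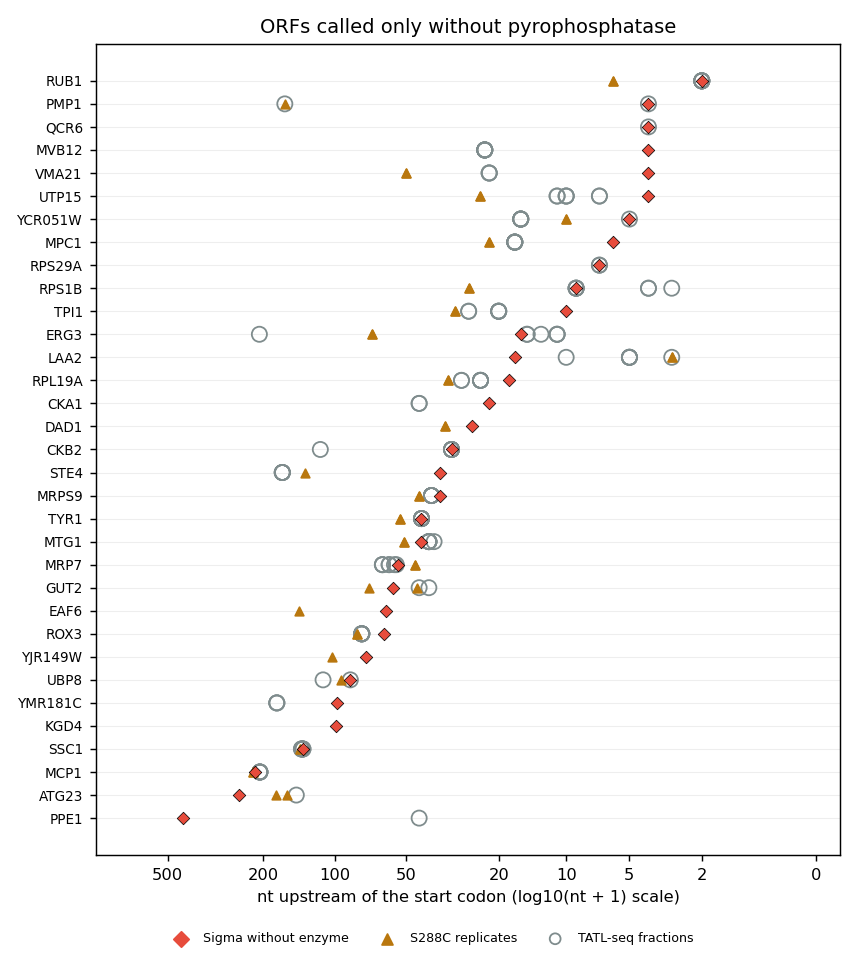
Distance of each called end from the start codon (nt, log10(nt + 1) scale, start codon to the right) for the 33 ORFs called only without pyrophosphatase, ordered by the control length. Diamonds inside rings, such as SSC1 and TYR1, equal a TATL-seq length; KGD4 has no other call, and PPE1 lies 386 nt from its only other call.

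The 10 with an exact match were SSC1, for the mitochondrial Hsp70, at 136 nt (136 to 138 nt in 6 fractions, 140 nt in both S288C replicates), UBP8 at 86 nt, the tyrosine synthesis gene TYR1 at 43 nt, the casein kinase gene CKB2 at 32 nt, RPS1B at 9 nt, RPS29A at 7 nt, YCR051W at 5 nt, PMP1 and QCR6 at 4 nt and the ubiquitin-like protein gene RUB1 at 2 nt. A further 10 lay 1 to 10 nt from a capped length: ERG3 (16 nt) and MRP7 (54 nt) at 1 nt, MRPS9 (36 nt), MTG1 (43 nt) and UTP15 (4 nt) at 3 nt, MCP1 (216 nt) at 5 nt, RPL19A (18 nt) at 6 nt, LAA2 (17 nt) at 7 nt, DAD1 (26 nt) at 8 nt and TPI1 (10 nt) at 10 nt. ERG3, for the sterol C-5 desaturase, had 70 nt in both S288C replicates, so that its 16 nt lay near TATL-seq (11 to 15 nt in 6 fractions, 207 nt in fraction 1) and 54 nt from S288C TL-seq. TPI1, for triose phosphate isomerase, was the only glycolysis gene with a control call, at 10 nt against 20 to 27 nt in the fractions and 31 nt in S288C.

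In the last 12 no capped end lay within 10 nt. STE4, for the β subunit of the pheromone-responsive G protein, had 36 nt in the control against 166 nt in each of 5 fractions and 133 nt in 1 S288C replicate. VMA21 had 4 nt against 22 nt in 3 fractions and 50 nt in both S288C replicates, and MVB12, of the ESCRT-I complex, 4 nt against 23 nt in all 7 fractions. The Mediator gene ROX3 had 62 nt against 77 nt in all fractions and 81 nt in S288C, and the mitochondrial pyruvate carrier gene MPC1 6 nt against 17 nt and 22 nt. The control end of these 5 genes lay nearer the start codon than all their capped ends, as it did for CKA1 (22 nt against 44 nt), EAF6 (61 nt against 141 nt), YJR149W (74 nt against 103 nt) and YMR181C (98 nt against 175 nt). The reverse held for PPE1, with 430 nt against 44 nt in 1 fraction, and ATG23, with 251 nt against 145 to 176 nt, while GUT2, at 57 nt, lay between 40 and 72 nt.

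Beside ORFs, the control held 2 snoRNA names, snR11 at 92 nt and snR189 at 8 nt, and no tRNA. Neither snoRNA was called in another library. The library with the enzyme held 14 snoRNAs and 3 tRNAs, none of them shared with the control.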

How the data were processed

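Leader lengths, in nucleotides per gene, were deposited by the authors as 1 value per gene and library, without reads or headers (unit other in the sense that no abundance is given). Per the submitters' processing notes, reads were aligned with Bowtie, and for Sigma and TATL-seq to sacCer3; the sources used here do not give its version, the annotation or the rule for calling 1 length. Names were matched to systematic names in a RefSeq gene table of R64, the assembly of sacCer3; all 4551 ORFs matched. Strand was read from the W or C of the systematic name, and an end was placed at the ORF start minus its length. The spans include introns. No sequence was used, so the planned base context was not analysed here.

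With 1 library a group, no test was run. Counts, medians, exact Clopper-Pearson intervals on shares and order-statistic intervals on medians (95%) were computed with Python 3.11.15, pandas 2.3.3, NumPy 2.4.6 and SciPy 1.17.1; the classification was tested on simulated data. The same position meant a difference of 0 nt, and displaced meant at least 10 nt. Named were all ORFs called only in the control, the 15 largest distances in each direction, the 12 longest shared leaders, and up to 4 ORFs of each of 17 gene lists. Other ORFs, among them those at 1 nt and those below all fractions, were named after their values were seen. The members and lists were chosen with earlier results of these data known.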

Additional observations from a re-analysis of the deposited data

How the results depend on the processing

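The downstream excess at 10 nt or more kept its direction under the reference, filter and distance alternatives tried, and of 82 alternative values 49 stayed within 1.5 times the reported count or, for medians, within its interval of −3 to 0 nt; the 33 that did not are given below. With a tolerance of 2 nt, 61 ORFs had the same end. With 5 nt, 88 were the same and 21 upstream, and with 10 nt, 48 were downstream, 111 the same and 12 upstream. A minimum distance of 5 nt gave 23 upstream ends; 20 nt gave 25 downstream and 7 upstream, and 50 nt gave 7 and 2. With the S288C mean as the capped end, 150 ends were downstream, 1 the same and 23 upstream (6 by at least 10 nt), with a median of −6 nt. The Sigma ends with the enzyme also lay mostly downstream of this mean. Over the 154 shared ORFs called in both S288C replicates, 45 of them lay at least 10 nt downstream and 19 upstream. The control gave 59 and 4 over the same ORFs. The direction kept under the unshifted S288C references thus cannot be separated from that offset. Leaving out either S288C replicate gave 154 to 155 downstream, 2 the same, 23 to 25 upstream, 8 upstream by at least 10 nt (73 to 74 downstream), and medians of −7 to −6 nt. Moving S288C by the median difference of −5 nt, chosen after seeing the data, gave 19 the same, 91 downstream and 64 upstream. Limited to leaders of at least 20 nt with the enzyme, 19 were the same, 27 upstream (8 by at least 10 nt), and the median was −4 nt. This limit uses a length that also enters the difference, so it favours downstream ends. Limited to ORFs called in both S288C replicates, 20 were called only in the control. Within 2 nt of a capped length lay 12 of the control-only ORFs, and within 10 nt 20 without either S288C replicate. The base context alternatives were not run. No paired analysis was possible because each Sigma library is a single sample and the result comes from no test. The unknown read depth limits every absence of a call.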

Other observations

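A pair of complexes outside the lists was picked because their genes had control calls, so their counts are a description and not a share to set against the 9.08% of ORFs called with the enzyme, or the 4.48% of all 4551 ORFs, that had one. Of the 11 protein subunits of RNase P and RNase MRP, the ribonucleoproteins that process tRNA and ribosomal RNA precursors, 6 were called with the enzyme and 3 of these without it. POP4 went from 49 to 18 nt, RPP1 from 15 to 9 nt and POP7 from 29 to 33 nt, and POP3, POP5 and SNM1 were called only with the enzyme. Of the 4 casein kinase 2 subunits, CKA1 (22 nt) and CKB2 (32 nt) were called only in the control, CKB1 (62 nt) only with the enzyme, and CKA2 in neither Sigma library. CKA1 and CKB2 had no call in S288C TL-seq, and CKB1 had 77 nt in both of those replicates.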
